A study of Mus musculus with 4 samples.

Results

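Peptidergic nociceptors are the pain-sensing neurons of the dorsal root ganglia that release neuropeptides from their endings in skin, viscera and spinal cord. The peptides are cut from larger precursor proteins and are stored in dense-core secretory granules, whose matrix is built largely from the acidic granin proteins. The account below covers 10 genes of this system, chosen by name: the peptide precursor genes Calca, Calcb, Tac1 and Adcyap1, the granin family genes Chga, Chgb, Scg2, Scg3 and Vgf, and the nesfatin precursor gene Nucb2. All 10 were among the 14405 genes of the deposited matrix, and all 10 passed the filter on low values, a group mean of at least 1 FPKM in either genotype, with 14040 genes in all.

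The matrix holds FPKM, a read fragment value divided by the length of the transcript and the size of the library, from bulk RNA sequencing of dorsal root ganglia of mice aged 10 weeks and of mixed strain. There were 2 wild type and 2 mutant samples, and the labels do not say that each came from a separate animal. The mutants had the genotype Prdm12-/Fl; AvilCreERT2/+, that is 1 null allele of Prdm12 in every cell, 1 floxed allele, and 1 copy of a tamoxifen-inducible Cre under the sensory neuron gene Avil. No source used here gives the dose or date of tamoxifen. Where a pair of values is given for a genotype, library 1 comes first and library 2 second. The wild type samples are labelled as such with no further allele, and the label does not say whether they carried the Cre or a floxed allele, or received tamoxifen. If they carried neither the null allele nor the Cre, these differed between the groups together with the loss from the floxed allele. The effects could then not be told apart. Prdm12, a zinc finger transcription factor of the nociceptor lineage, read 7.58 and 10.7 FPKM in the wild types, against 1.05 and 1.495 FPKM in the mutants (log2 difference -2.14, limma adjusted p = 0.180). For Prdm12, the authors' deposited table has a log2 change of -2.84 and q = 0.00742. In whole ganglia, fewer cells of a type and less RNA per cell cannot be told apart.

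Some properties of the libraries bear on what follows. The summed FPKM of 17 pan-neuronal genes was 4930 and 6470 for the wild types and 5256 and 7756 for the mutants. Skeletal muscle markers also differed within each genotype (summed FPKM 329 and 2569 for the wild types, 151 and 5070 for the mutants), as did adipocyte markers (575 and 1030, 326 and 3012 FPKM). Between the genotypes, erythrocyte markers summed to 3411 and 3203 FPKM against 6396 and 6520 FPKM, with 7 of 7 genes higher without overlap. Schwann cell and myelin markers summed to 8834 and 6967 FPKM against 8748 and 17406 FPKM, with 8 of 13 higher without overlap, where 12.5% of all genes were. The part of these cells in the differences between the genotypes below was not tested. Xist had 21.1 FPKM in wild type 2 and at most 0.0295 FPKM in the other 3 libraries. Eif2s3y, on the Y chromosome, had 0.0252 FPKM in wild type 2 and between 21.3 and 24.7 FPKM in the others. By these genes wild type 2 was female and the others male, so sex was not balanced between the genotypes. Of 15 listed markers of peptidergic nociceptors, 12 were in the matrix and Kcnk18, Oprm1 and Slc17a8 were not. The capsaicin receptor gene Trpv1 had 12.7, 15.5, 11.5 and 17.2 FPKM, in the order wild type 1 and 2, mutant 1 and 2. Of 10 markers of sympathetic neurons and chromaffin cells, which also store granins, 1 was in the matrix. That 1 is Th, which some touch-sensing neurons of the ganglion also express, with 20.8 and 33.5 FPKM for the wild types and 22.5 and 57.5 FPKM for the mutants. Dbh, Pnmt, Slc6a2, Slc18a1, Hand1, Hand2 and Gata3 were among those not in the matrix, which lists genes of at least 1 FPKM in at least 1 sample.

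Calca and Calcb encode the calcitonin gene-related peptides αCGRP and βCGRP, potent dilators of blood vessels. They lie 82.3 kb apart on mouse chromosome 7, Calca (ENSMUSG00000030669.13) at 114631478 to 114636357 on the minus strand and Calcb (ENSMUSG00000030666.11) at 114718643 to 114723365 on the plus strand of mm10. Their sequences are shown because the genotypes overlapped for Calca and not for Calcb, and because close paralogs can share reads. Over the aligned coding sequence, the CGRP transcript of Calca and its closest Calcb transcript were identical at 333 of 387 bases, or 86.0%. The most alike stretch of 90 bases holds 3 differences, given here in capitals, in the GENCODE transcripts 5′ to 3′.
Calca, coding bases 226 to 315: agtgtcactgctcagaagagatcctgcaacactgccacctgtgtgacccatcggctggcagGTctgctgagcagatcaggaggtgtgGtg
Calcb, coding bases 307 to 396: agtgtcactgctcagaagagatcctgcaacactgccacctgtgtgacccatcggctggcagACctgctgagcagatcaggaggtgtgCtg
Of the 657 runs of 50 bases in that Calcb transcript, 12 also occur without any difference in the Calca transcript, or 1.83%. Of the 632 runs of 75 bases 0 do. Runs that differ at a few bases were not counted, so the counts do not exclude reads shared with mismatches. No source used here gives the read length or how reads that match both genes were treated. Calca also makes calcitonin by alternative splicing, and the FPKM of the gene does not separate the products.

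The 10 genes spanned a wide range of levels, and FPKM is scaled to length, so levels can be set against each other. Calca was by far the most abundant, at a mean of 1709 FPKM over the 4 libraries, and took between 64.7% and 68.4% of the summed FPKM of the 10 genes in each library. Tac1 (393 FPKM), Calcb (217 FPKM) and Scg3 (129 FPKM) followed, then Scg2 (46.6 FPKM), Chga (27.2 FPKM), Adcyap1 (22.8 FPKM), Nucb2 (15.4 FPKM), Vgf (10.7 FPKM) and Chgb (8.22 FPKM). The ranges over the 4 libraries overlapped between the neighbours Calcb and Scg3, Scg2 and Chga, Chga and Adcyap1, Nucb2 and Vgf, and Vgf and Chgb. They did not overlap between Calca and Tac1, Tac1 and Calcb, Scg3 and Scg2, or Adcyap1 and Nucb2.

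**Figure D1:**
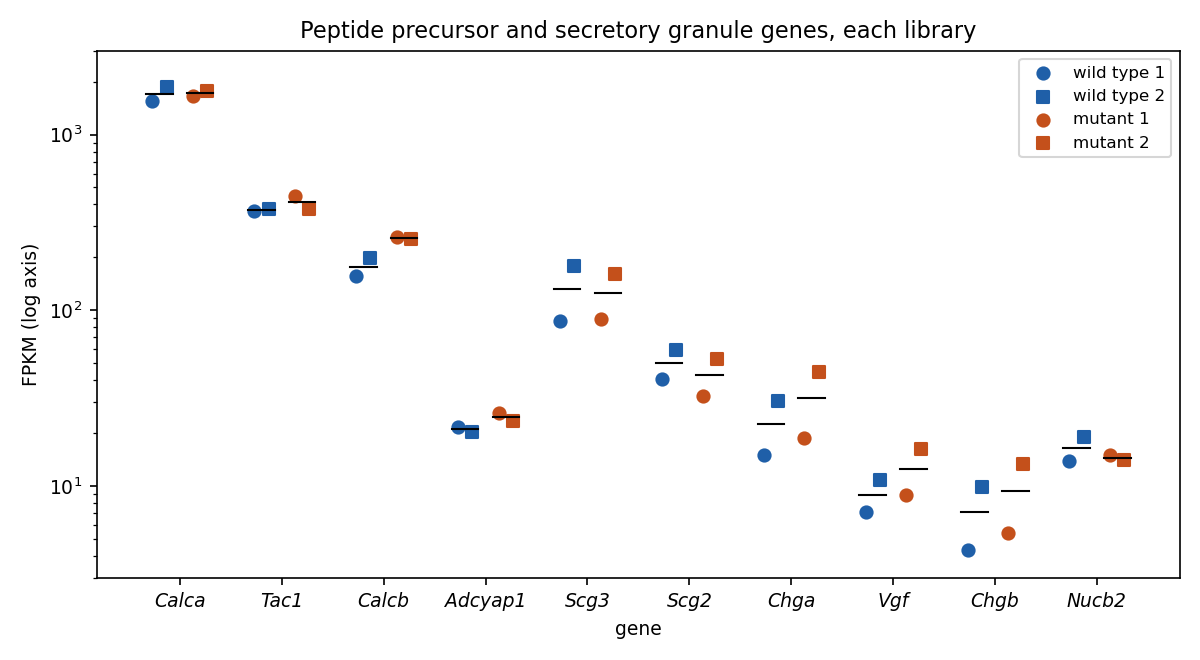
FPKM (log axis) of each gene in each of the 4 libraries, with a black line at the mean of the 2 libraries of a genotype. Both mutant libraries of Calcb (255 and 260 FPKM) lie above both wild types, and the squares of the granin family (wild type 2 and mutant 2) lie above the circles (wild type 1 and mutant 1).

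The comparison between the genotypes asks whether RNAs for peptides and their granules differed in ganglia of mice with induced loss of Prdm12. With limma, 0 of the 10 genes passed an adjusted p of 0.05, as did 0% of the 14040 genes tested. At an unadjusted p under 0.05 there was 1 of 10, Calcb, against 4.36% of all genes. That count was 0 after rescaling to the pan-neuronal sum, where 346 of all 14037 genes tested had such a limma p. With a replicate block it was 4, where 1474 of all 14040 genes did. The groups did not overlap for 3 of 10 genes, where 32.1% of all genes showed no overlap. These were Calcb, Tac1 and Adcyap1, each higher in the mutants, a direction without overlap for 12.5% of all genes. For 0 of 10 were both mutants lower, where 19.6% of all genes had that pattern. The median log2 difference of the 10 genes was 0.18, on the scale of log2(FPKM + 1), mutant minus wild type, beside -0.00 for all genes and 0.26 for the pan-neuronal genes. The sign of that median rested on single libraries: it was -0.09 without wild type 1 and -0.07 without mutant 2. Without wild type 2 it was 0.32, and without mutant 1 it was 0.26. With 2 samples against 2, an exact two-sided permutation test of 1 gene cannot give a p below 0.333.

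Calca read 1547 and 1861 FPKM in the wild types, against 1665 and 1764 FPKM in the mutants. Both mutant libraries lay between the wild types. The group means were 1704 ± 222 and 1715 ± 69.8 FPKM (SD, n = 2 each), with a log2 difference of 0.01 (standard error 0.18, 95% interval -0.44 to 0.46, limma adjusted p = 0.995). Its sign turned without wild type 1 (-0.12) and without mutant 2 (-0.03).

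Calcb read 157 and 198 FPKM in the wild types, against 260 and 255 FPKM in the mutants. The groups did not overlap, and both mutants stood close together above the higher wild type. The means were 177 ± 29.0 and 257 ± 3.51 FPKM (SD, n = 2 each), 1.45-fold higher in the mutants. The log2 difference was 0.54 (standard error 0.18, 95% interval 0.09 to 1.00), with a limma p of 0.0265 before adjustment and a limma adjusted p of 0.994 over all genes. It ran from 0.38 to 0.71 with each library left out in turn, and the unadjusted limma p was 0.237 without wild type 1, 0.0454 without wild type 2, 0.0660 without mutant 1 and 0.0528 without mutant 2. Rescaled to the pan-neuronal sum, it was 0.37 (a limma p of 0.270 before adjustment), in a scaling that moved the median of all genes to -0.16.

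The ratio of the paralogs within a library does not depend on the scaling between libraries. The Calcb FPKM was 10.1% and 10.6% of that of Calca in the wild types, and 15.6% and 14.4% in the mutants. The means were 10.4% ± 0.350 and 15.0% ± 0.817 (SD, n = 2 each), and the groups did not overlap. Since Calca hardly differed between the genotypes, the ratio restates the Calcb difference and is no separate support for it. How often ratios of other gene pairs separate the groups was not measured. The sum of Calca and Calcb was 1703 and 2058 FPKM for the wild types and 1925 and 2019 FPKM for the mutants, with overlap.

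**Figure D2:**
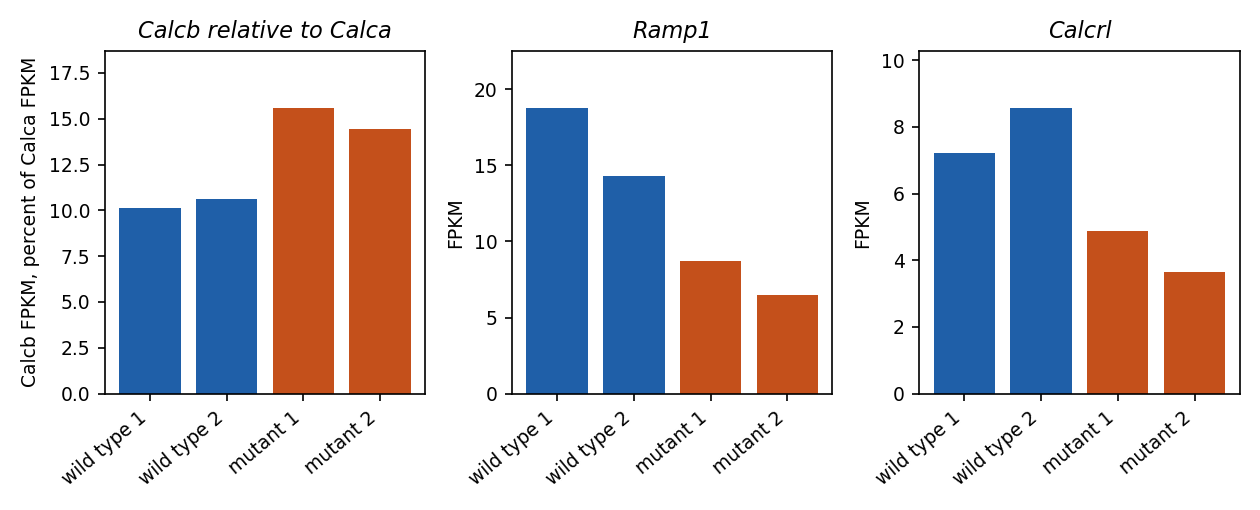
Left, Calcb FPKM as a percent of Calca FPKM; middle and right, FPKM of the CGRP receptor subunit genes Ramp1 and Calcrl; each bar is 1 library, blue for wild type and orange for mutant. The Calcb share is 14.4% and 15.6% in the mutants against 10.1% and 10.6% in wild type, and both receptor genes are lower in the mutant libraries.

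Tac1 (ENSMUSG00000061762.12, chromosome 6, 7554879 to 7565834) encodes the precursor of substance P and neurokinin A, the tachykinins of pain fibres. Its FPKM reading was 369 and 375 in the wild types and 448 and 380 in the mutants. Mutant 1 stood apart, and mutant 2 was close to the wild types. The log2 difference was 0.15 (95% interval -0.27 to 0.57, limma adjusted p = 0.994). Rescaled to the pan-neuronal sum it was -0.03, so its sign depended on the scaling.

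Adcyap1 (ENSMUSG00000024256.7, chromosome 17, 93199017 to 93206537) encodes PACAP, a peptide of the vasoactive intestinal peptide family. The wild types gave 21.7 and 20.3 FPKM and the mutants 25.9 and 23.3 FPKM. Both mutants were above both wild types by a small step. The log2 difference was 0.22 (95% interval -0.16 to 0.59, limma adjusted p = 0.994). The summed FPKM of the 4 peptide precursor genes was 2094 and 2454 for the wild types and 2398 and 2421 for the mutants, with overlap.

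The granin family genes differed more between libraries of 1 genotype than between the genotypes. Their summed FPKM was 154 and 289 for the wild types and 155 and 289 for the mutants, a mean of 222 ± 95.7 in wild type and 222 ± 95.1 in the mutants (SD, n = 2 each). All 5 genes were higher in wild type 2 than in wild type 1 and higher in mutant 2 than in mutant 1. Of the 10 genes, 4 were at least 1.5-fold higher in both of these library pairs, namely Chga, Chgb, Scg3 and Vgf. Among all genes 3.35% were, and among the 17 pan-neuronal genes 5 were, so such steps were not particular to granins. For the 4 peptide genes the ratio of wild type 2 to wild type 1 ran from 0.936 to 1.26, and that of mutant 2 to mutant 1 from 0.848 to 1.06.

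Chga (ENSMUSG00000021194.6, chromosome 12, 102554969 to 102565028) encodes chromogranin A, a main protein of the granule core. Values were 14.9 and 30.4 FPKM in the wild types, and 18.8 and 44.7 FPKM in the mutants. The groups overlapped, with a log2 difference of 0.43 (95% interval -0.81 to 1.66, limma adjusted p = 0.994). Without wild type 1 the difference was -0.06 and without mutant 2 it was -0.18, so its sign rested on single libraries.

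Chgb (ENSMUSG00000027350.8, chromosome 2, 132781278 to 132795079) encodes chromogranin B, also a granule core protein. Its level in the wild types was 4.33 and 9.88 FPKM, and in the mutants 5.39 and 13.3 FPKM. The pattern was that of Chga at a lower level, with a log2 difference of 0.33 (95% interval -0.90 to 1.55) that was -0.19 without wild type 1 and -0.25 without mutant 2. Wild type 2 exceeded wild type 1 by 2.28-fold and mutant 2 exceeded mutant 1 by 2.46-fold, the widest steps among the 10 genes.

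Scg3 (ENSMUSG00000032181.7, chromosome 9, 75643189 to 75684056) encodes secretogranin III, which binds chromogranin A and links it to the granule membrane. Its FPKM reading was 86.8 and 179 in the wild types and 88.8 and 162 in the mutants. The pair of low libraries lay within a narrow range, as did the pair of high ones. The log2 difference between the genotypes was -0.06 (95% interval -1.14 to 1.03), and it was 0.46 without wild type 2 and 0.37 without mutant 1.

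Scg2 (ENSMUSG00000050711.7, chromosome 1, 79434669 to 79440120) encodes secretogranin II, the precursor of secretoneurin. The wild types gave 40.9 and 59.6 FPKM and the mutants 32.7 and 53.1 FPKM. Its difference between the genotypes had a negative value of -0.24 (95% interval -0.99 to 0.51), and it was 0.03 without wild type 2 and 0.10 without mutant 1.

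Vgf (ENSMUSG00000037428.14, chromosome 5, 137026392 to 137033351) encodes a granin-like precursor that is induced by neurotrophins. Values were 7.11 and 10.8 FPKM in the wild types, and 8.89 and 16.2 FPKM in the mutants. The groups overlapped (log2 difference 0.42, 95% interval -0.39 to 1.22). The limma adjusted p was 0.994 or 0.995 for each of the 10 genes.

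**Figure D3:**
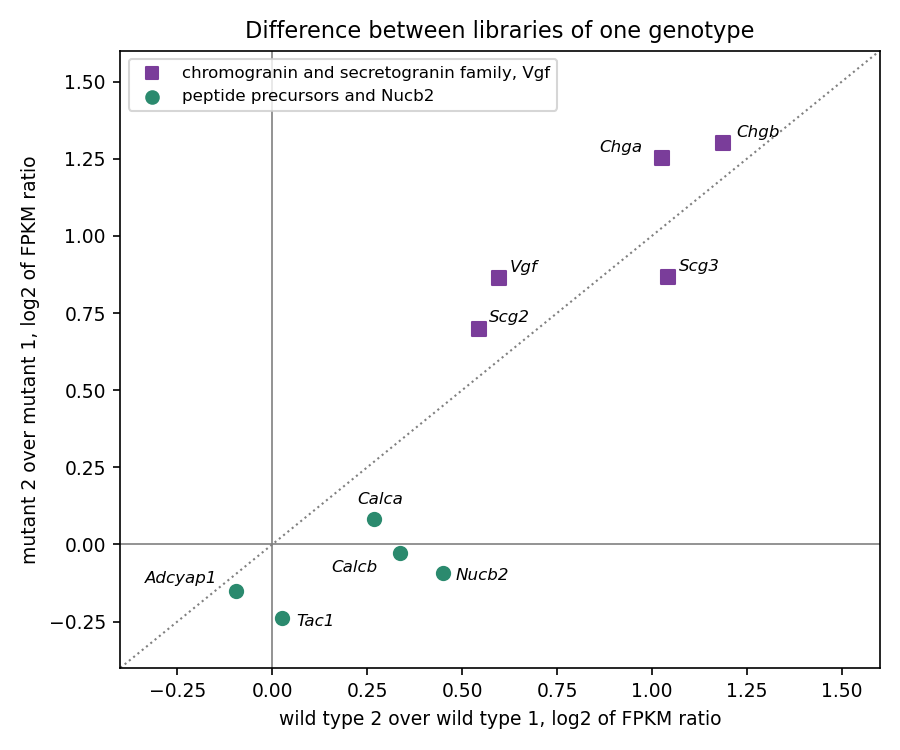
Log2 of the FPKM ratio of wild type 2 to wild type 1 (x axis) and of mutant 2 to mutant 1 (y axis), 1 point per gene; the dotted line marks equal ratios. The 5 granin family genes lie in the upper right, and Calca, Calcb, Tac1, Adcyap1 and Nucb2 lie near or below 0 on the y axis.

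Neuronal RNA moved with the same libraries. The pan-neuronal sum was 1.31-fold higher in wild type 2 than in wild type 1 and 1.48-fold higher in mutant 2 than in mutant 1, and 16 of 17 of its genes were higher in both, where 40.3% of all genes were. Divided by that sum, the steps of Chga were 1.55-fold and 1.61-fold in wild type and mutant, those of Chgb 1.74-fold and 1.67-fold, and those of Scg3 1.57-fold and 1.23-fold. For Vgf they were 1.15-fold and 1.23-fold and for Scg2 1.11-fold and 1.10-fold. On the same scale the peptide precursor genes were lower in wild type 2 and mutant 2 than in the other library of the genotype. The ratios were 0.917 and 0.718 for Calca, 0.961 and 0.665 for Calcb, 0.775 and 0.574 for Tac1, and 0.713 and 0.610 for Adcyap1. The muscle and adipocyte sums and the Th values given above were also higher in wild type 2 and mutant 2, and their part in the granin steps was not tested. Xist and Eif2s3y, given above, set wild type 2 apart from wild type 1, and both mutants had Eif2s3y at 23.2 FPKM or more.

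Nucb2 (ENSMUSG00000030659.14, chromosome 7, 116504369 to 116540584) encodes nucleobindin 2, a calcium-binding protein and the precursor of nesfatin-1, and is made in many cell types. Its level in the wild types was 13.9 and 18.9 FPKM, and in the mutants 14.9 and 14.0 FPKM. Wild type 2 stood above the other 3 libraries, and the groups overlapped (log2 difference -0.16, 95% interval -0.63 to 0.32). Without wild type 2 the difference was 0.06.

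**Figure D4:**
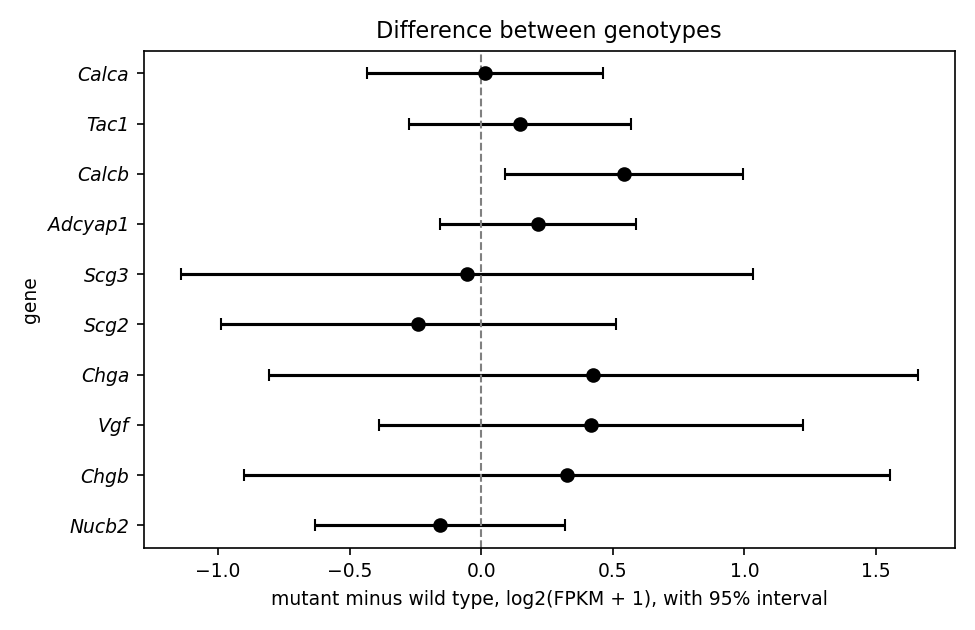
Mutant minus wild type difference of each gene on the log2(FPKM + 1) scale, with the 95% interval of the limma fit. The interval of Calcb runs from 0.09 to 1.00, and those of the other 9 genes include 0; the intervals of Chga, Chgb and Scg3 are the widest.

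The promoters of the 10 genes were searched for the cAMP response element, after the granin steps between libraries had been seen. This element is the site of the transcription factor CREB, which is known to drive several granule genes. RefSeq promoter entries on GRCm38.p6 matched 8 of the 10 genes, without Calcb and Vgf, and the 250 bases before each RefSeq start were read on both strands. The full element, TGACGTCA, was found in the windows of Scg2 and Chgb, 2 of 8 genes, where 1.55% of 32851 such windows hold it. Its core, TGACG, which the full element contains on each strand, was found in 7 of 8 genes, where 17.8% of windows hold it. Nucb2 had none. The counts are of genes and the shares are of windows, and a gene can have more windows. The granin sites are shown, 30 bases each on the strand of the gene, with the element in capitals.
Scg2, chr1:79440076-79440105, minus strand: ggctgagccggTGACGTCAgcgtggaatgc
Chgb, chr2:132781559-132781588, plus strand: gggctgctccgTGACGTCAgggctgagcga
Chga, chr12:102554885-102554914, plus strand: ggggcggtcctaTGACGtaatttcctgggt
Scg3, chr9:75684069-75684098, minus strand: gcgctgggtcgcTGACGccatcctcacgcc
The first base of the element lies 68 bases before the RefSeq start in Scg2, 72 in Chgb, 44 in Chga and 30 in Scg3. The sites of Scg2 and Chgb lie inside the gene spans that GENCODE gives, printed above, whose starts lie further upstream, and for Chgb the first bases of no GENCODE transcript were found beside the RefSeq start. Their place before the start therefore holds for the RefSeq start only. The core was also found in Calca, Tac1 and Adcyap1, and a match of letters does not show a bound site. A part of the element in the steps between libraries was not tested.

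Enzymes cut, trim and amidate the precursors, largely inside the granule. Not every enzyme of the list below acts in the granule. Of 15 tested genes of prohormone processing, 0 passed the adjusted threshold, and the median log2 difference was -0.09. In this list 1 gene was higher and 4 were lower without overlap, where 12.5% and 19.6% of all genes were. Cpe, the carboxypeptidase that trims cut peptides, read 334 and 406 FPKM in the wild types, against 354 and 340 FPKM in the mutants. The cysteine protease gene Ctsl read 352 and 423 FPKM against 383 and 296 FPKM. Pcsk5, a proprotein convertase gene, read 6.09 and 5.81 FPKM against 5.46 and 3.51 FPKM, without overlap. Cpm, a membrane carboxypeptidase gene, read 4.17 and 2.91 FPKM in the wild types, against 1.09 and 1.41 FPKM in the mutants (log2 difference -1.002, limma adjusted p = 0.592). The authors' deposited table lists Cpm with a log2 change of -1.502 and q = 0.0131.

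Of 27 tested genes of dense-core vesicle formation and release, 0 passed, and the median was 0.07. Without overlap, 2 were higher and 3 lower, where 12.5% and 19.6% of all genes were. Rab3a, a vesicle GTPase gene, read 191 and 220 FPKM in the wild types, against 214 and 291 FPKM in the mutants, and Rab2a, of granule formation, at 167 and 178 against 169 and 195 FPKM. Kif1a, the motor that carries dense-core vesicles along axons, read 32.3 and 36.1 FPKM against 40.4 and 66.4 FPKM (log2 difference 0.59, limma adjusted p = 0.994). Rab27a, of vesicle docking, read 7.15 and 8.61 against 6.44 and 5.95 FPKM. In this list 6 of 27 genes were at least 1.5-fold higher both in wild type 2 than in wild type 1 and in mutant 2 than in mutant 1, where 3.35% of all genes were.

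Both subunits of the CGRP receptor had lower values in the mutants. Ramp1 (ENSMUSG00000034353.14, chromosome 1, 91179822 to 91225196), the accessory subunit, read 18.8 and 14.3 FPKM in the wild types, against 8.69 and 6.51 FPKM in the mutants. Its groups did not overlap, and the wild type mean was 2.18-fold that of the mutants (log2 difference -1.03, standard error 0.21, 95% interval -1.55 to -0.51, limma adjusted p = 0.577). The authors' deposited table lists Ramp1 with a log2 change of -1.12 and q = 0.00742, and it lists 0 of the 10 peptide and granule genes among its 150. Calcrl (ENSMUSG00000059588.13, chromosome 2, 84330626 to 84425411), the receptor itself, read 7.23 and 8.57 FPKM in the wild types, against 4.88 and 3.64 FPKM in the mutants (log2 difference -0.77, limma adjusted p = 0.703). The summed FPKM of 11 fibroblast and meninges markers was 6634 and 5179 for the wild types and 6456 and 3451 for the mutants, with 5 of the 11 genes lower without overlap and 0 higher, where 19.6% and 12.5% of all genes were. Its part in the receptor values was not tested.

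Over the 9 tested receptor genes, 0 passed, and the median was -0.11. Without overlap, 0 were higher and 3 lower, where 12.5% and 19.6% of all genes were. Ramp2, the partner of Calcrl in the adrenomedullin receptor, read 154 and 221 FPKM in the wild types, against 213 and 138 FPKM in the mutants. C1qbp, a mitochondrial protein gene whose product also binds a VGF peptide, read 58.5 and 77.2 against 55.3 and 83.2 FPKM. The tachykinin receptor genes Tacr1, Tacr2 and Tacr3 were not in the matrix.

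Among 15 tested precursors of other neuropeptides, 0 passed, and the median was -0.14. Without overlap, 2 were higher and 4 lower, where 12.5% and 19.6% of all genes were. Nmb, which encodes neuromedin B, read 189 and 244 FPKM in the wild types, against 208 and 240 FPKM in the mutants. Nppb, the natriuretic peptide precursor of itch neurons, read 53.3 and 68.4 FPKM against 39.97 and 44.0 FPKM (log2 difference -0.52, limma adjusted p = 0.994). Grp, the gastrin-releasing peptide gene, read 1.86 and 0.818 FPKM against 0.168 and 0.0952 FPKM, and the vasopressin gene Avp at 0.115 and 0 against 0.755 and 1.57 FPKM. Both genes were near or below 1 FPKM in most libraries, where the depth behind a value is unknown.

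Of 12 tested peptidergic nociceptor markers, 0 passed, and the median was -0.08. Without overlap, 3 were higher and 2 lower, where 12.5% and 19.6% of all genes were. The most abundant was Ly6e, a membrane protein gene, with 120 and 114 FPKM in the wild types and 159 and 97.4 FPKM in the mutants. Smr2 read 9.60 and 10.4 FPKM in the wild types, against 7.02 and 3.81 FPKM in the mutants, and the prostacyclin receptor gene Ptgir at 2.95 and 3.56 against 4.25 and 6.76 FPKM. Their log2 differences were -0.82 and 0.59 (limma adjusted p = 0.994 for each). Of the 17 pan-neuronal genes, 0 passed, and 1 was higher and 1 lower without overlap, beside the same shares of all genes. Uchl1, a ubiquitin hydrolase abundant in neurons, read 1593 and 1983 against 1636 and 2433 FPKM, and Stmn3, a tubulin-binding protein gene, at 878 and 1144 against 929 and 1243 FPKM. The neuronal tubulin gene Tubb3 read 672 and 775 against 777 and 1079 FPKM, and the microtubule protein gene Map1b at 46.0 and 73.9 against 58.7 and 122 FPKM.

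**Figure D5:**
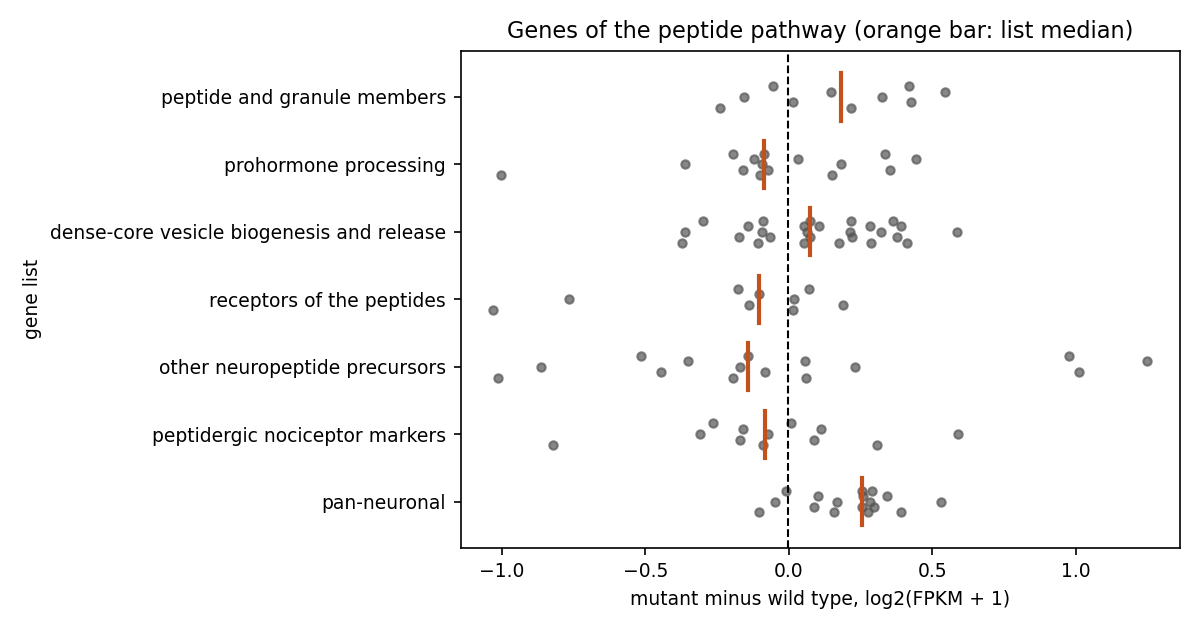
Mutant minus wild type difference on the log2(FPKM + 1) scale for each tested gene (points) of the 10 peptide and granule genes and of 6 lists of related genes; the orange bar is the list median and the dashed line the median of all genes. List medians lie between -0.14 and 0.26, and Ramp1, Grp and Cpm lie lowest, near -1.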

How the data were processed

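RNA of dorsal root ganglia was sequenced in 2 wild type and 2 mutant samples, grouped by their titles. The authors deposited FPKM per gene, and a list of 150 genes with group FPKM, log2 fold change, a test score, p-value and q-value in Cuffdiff's columns, per the file headers. The tools named in the submitters' processing notes are CASAVA, Cufflinks 2.2.1 and TopHat2 2.1.2, with build mm10; no source used here gives their roles, settings or strand. FPKM hold no counts and 6 genes had values between 0 and 0.1 in 2 or more samples, too few to recover reads, so depth is unknown. Summed FPKM ran from 620018 to 686830.

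Differences were fitted with limma 3.58.1 (R 4.3.3), whose variance prior followed mean expression, on log2(FPKM + 1) over genes with a group mean of at least 1 FPKM, with Benjamini-Hochberg adjustment over all genes and a threshold of 0.05. The scale understates changes of low genes. The script was tested on simulated data. Since nothing says the samples are separate animals, p-values reflect only sample spread, in part perhaps technical. The 10 genes and all lists, and the grouping into peptides and granins, were chosen with earlier results of these data known. Named genes are the 10, Prdm12, genes of these lists in the authors' list, and from each of 6 lists the 2 highest by mean and the 2 with the largest moderated t. Not every gene this rule takes is reported here. Markers are given beside them as library checks. Gene coordinates and coding sequences come from GENCODE M21 on GRCm38, the assembly of mm10, aligned with Biopython 1.88. Pseudocount, filters, scaling, variance prior, a replicate block and leaving out each sample were tried.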

Additional observations from a re-analysis of the deposited data

How the results depend on the processing

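With 2 samples a group and unknown depth, small differences could not be resolved, and 0 of the 10 peptide and granule genes passed under any of the 12 alternatives. The number of all genes past the threshold was 0 with all samples, 2 after rescaling to the pan-neuronal sum, 61 with a replicate block and 0 to 5 with each sample left out. The median of the 10 genes ran from 0.01 to 0.20 over the other settings and from -0.09 to 0.32 with each sample left out. The 3 genes higher without overlap were 2 after median ratio, quantile or pan-neuronal scaling, the last with 1 lower. Signs turned after rescaling to the pan-neuronal sum for Calca (-0.16), Tac1 (-0.029), Rab2a (-0.10), C1qbp (-0.16), Nmb (-0.12), Ly6e (-0.089), Uchl1 (-0.011) and Stmn3 (-0.076), and after quantile normalization for Calca (-0.033) and Nmb (-0.010). With each sample left out, signs turned for Calca (-0.12 to 0.15), Scg2 (-0.58 to 0.10), Scg3 (-0.57 to 0.46), Chga (-0.18 to 1.03), Chgb (-0.25 to 0.91), Nucb2 (-0.37 to 0.056), Cpe (-0.23 to 0.054), Rab2a (-0.028 to 0.18), Ramp2 (-0.42 to 0.21), C1qbp (-0.28 to 0.31), Nmb (-0.13 to 0.24), Ly6e (-0.26 to 0.44), Uchl1 (-0.12 to 0.45) and Stmn3 (-0.11 to 0.31); the cause was not tested. The samples share replicate numbers that the labels do not explain. Over genes, the difference between replicates 1 and 2 in wild type had a correlation of 0.48 with that in the mutants. With the replicate block Ramp1 (limma adjusted p = 0.0479) and Prdm12 (limma adjusted p = 0.0250) passed and Calcb did not (limma adjusted p = 0.295). Rescaled to the pan-neuronal sum, Prdm12 passed (limma adjusted p = 0.0306). Over all alternatives the adjusted p of Calcb ran from 0.295 to 1.00.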

Other observations

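Cartpt, which encodes the CART peptide precursor, was named after its values were seen. The wild types gave 41.7 and 22.9 FPKM and the mutants 67.8 and 56.5 FPKM, so both mutants stood above both wild types. The log2 difference was 0.98 (95% interval 0.22 to 1.73) with an unadjusted limma p of 0.0201, and it did not pass over all genes. Penk, the proenkephalin gene, had the opposite sign without overlap, with 15.5 and 17.9 FPKM for the wild types and 13.01 and 5.74 FPKM for the mutants (log2 difference -0.86). Among processing genes chosen the same way, Scg5, the chaperone of the convertase PC2, had 196 FPKM in wild type 1 but 419, 360 and 424 FPKM in wild type 2, mutant 1 and mutant 2. It therefore set wild type 1 apart from the other 3 libraries, unlike Chga, Chgb, Scg2, Scg3 and Vgf. For Scg5, wild type 2 was 2.14-fold wild type 1, and mutant 2 was 1.18-fold mutant 1. Pam, the enzyme that amidates peptide ends, gave 93.5 and 92.5 FPKM in the wild types against 87.1 and 79.4 FPKM in the mutants.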
